A study of Mus musculus with 3 samples.

Results

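The mitochondrial genome transcripts are the 37 genes whose symbol starts with mt-, of 55450 annotated genes in all, and every one of the 37 was found in the deposited tables. By class they are 13 mRNAs, 2 ribosomal RNAs and 22 tRNAs. RNA was measured in bone marrow derived macrophages of the mouse strain C57BL/6J, a primary cell grown from marrow, in the cytosolic fraction, after 25 minutes with 100 ng/ml lipid A. Lipid A is the membrane anchor of bacterial lipopolysaccharide and activates the receptor TLR4. Ribosomal RNA was depleted, each library was made from 1 µg of RNA, and the labels give a size range of 250 to 400 without a unit. The 3 libraries are biological replicates of 1 group under a single donor record, and the labels do not say whether they came from separate animals or cultures, so the spread between them may be technical. No untreated cells, whole-cell RNA or purified mitochondria were analysed here, and no value below is an effect of lipid A or of fractionation. In such bulk RNA, fewer mitochondria and less RNA per mitochondrion cannot be told apart.

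The mammalian mitochondrial genome is a small circular DNA that encodes core subunits of the respiratory chain and ATP synthase, together with the rRNAs and tRNAs needed to translate them inside the organelle. Both of its strands are transcribed into long precursors, and tRNAs lie between most of the other genes, so that their excision releases the mRNAs and rRNAs. The remaining subunits of the same complexes are made from nuclear genes in the cytosol and imported. Fragments of mitochondrial DNA have also been copied into nuclear chromosomes, where they are annotated as pseudogenes.

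On the strand written as plus in the mm10 assembly lie 12 of the 13 mRNAs, both rRNAs and 14 of the 22 tRNAs. The minus strand carries mt-Nd6 and the other 8 tRNAs. The files hold 2 quantifications of every library, RSEM expected counts from alignments and kallisto estimated counts from the reads directly, and whether either used the strand of the reads is not given in the sources used here. RSEM counts on gene rows came to 52956907, 43547422 and 38608503 in replicates 1 to 3, and 3 counts, the limit that a count of 0 allows, correspond to 0.0566, 0.0689 and 0.0777 CPM (counts-per-million). All 9 macrophage markers were at 1 TPM (transcripts-per-million, corrected for length) or more in every library, while none of the markers of T and NK cells, B cells, erythroid cells, stromal cells or mast cells, and 1 of 5 neutrophil markers, reached that level in all of them. Nuclear RNAs were present in this cytosolic fraction: Malat1 had 139688, 409405 and 77032 RSEM counts in replicates 1 to 3, with replicate 2 highest.

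On chromosome 1, 7 neighbouring pseudogenes carry mitochondrial sequence that is nearly or fully identical to the mitochondrial genes, and they took many of the counts. They lie at chr1:24611535-24616197 on the minus strand (mm10) and run from base 1054 of mt-Co1 to base 876 of mt-Nd4, in the order of the mitochondrial genome. The annotated copies of mt-Co2 (Gm28661, 681 aligned bases), mt-Atp6 (Gm10925, 678 bases), mt-Co3 (Gm28437, 783 bases), mt-Nd4l (Gm10222, 294 bases) and mt-Nd4 (Gm28439, 876 bases) have 0 mismatches to the mitochondrial gene. For mt-Co2, mt-Atp6 and mt-Co3, the part of the mitochondrial gene missing from the copy's annotation is the last 1 to 3 bases. The ends are printed below from the GENCODE M21 transcripts, because they show how little sequence separates each mitochondrial row from its nuclear row. Capitals mark the bases of the mitochondrial gene that lie beyond the annotated copy.
mt-Co2, chrM:7652-7696, plus strand: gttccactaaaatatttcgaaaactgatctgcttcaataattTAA
Gm28661, chr1:24614885-24614926, minus strand: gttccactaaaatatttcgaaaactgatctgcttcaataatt
mt-Atp6, chrM:8563-8607, plus strand: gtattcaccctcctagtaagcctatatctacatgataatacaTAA
Gm10925, chr1:24613974-24614015, minus strand: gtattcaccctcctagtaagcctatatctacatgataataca
mt-Co3, chrM:9346-9390, plus strand: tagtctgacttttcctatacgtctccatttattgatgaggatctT
Gm28437, chr1:24613189-24613232, minus strand: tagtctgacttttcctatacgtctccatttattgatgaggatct

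Only the copies of mt-Co1 and mt-Nd3 among these 7 pairs hold mismatches within the aligned bases. Gm28438 differs from mt-Nd3 by T3C over 345 bases, with positions counted from 1 at the 5′ end of the mitochondrial gene. Gm29216 covers the last 492 bases of mt-Co1 and differs by T1056A, C1057T, A1059G, A1060G, C1062A and A1066T, which all lie at its 5′ edge. Both starts are shown with the differing bases in capitals, because reads can be told apart only where they cross these bases or run past the edge of a copy.
mt-Nd3, chrM:9459-9503, plus strand: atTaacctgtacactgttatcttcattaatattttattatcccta
Gm28438, chr1:24613075-24613119, minus strand: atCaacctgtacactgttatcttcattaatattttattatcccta
mt-Co1, chrM:6381-6425, plus strand: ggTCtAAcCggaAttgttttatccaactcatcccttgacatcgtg
Gm29216, chr1:24616153-24616197, minus strand: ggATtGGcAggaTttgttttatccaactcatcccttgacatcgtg

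The 37 mitochondrial rows held 339160, 300718 and 156714 RSEM counts in replicates 1 to 3. That is 0.641%, 0.691% and 0.406% of all gene counts, a mean of 0.579% ± 0.152 (SD, n = 3). The mRNAs made up nearly all of it, at 0.575% ± 0.156 (SD, n = 3), and the rRNAs made up 0.00416% ± 0.00457 (SD, n = 3). Adding the chromosome 1 copies to their mitochondrial genes, a step chosen after seeing the data, brought the mRNA share to 0.898%, 0.967% and 0.546%, with a mean of 0.804% ± 0.226 (SD, n = 3). Replicate 3 was the lowest and replicate 2 the highest with and without the copies. In the kallisto counts the 37 genes took 0.666%, 0.637% and 0.403%, so replicate 3 was again lowest, while replicates 1 and 2 changed places. With copies added, the kallisto mRNA share was 0.817%, 0.772% and 0.469%, in that same order of libraries.

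The division of counts between a mitochondrial gene and its copy differed greatly among the 7 pairs. mt-Co2 (chrM:7013-7696), the cytochrome c oxidase subunit that receives electrons from cytochrome c, had 5.46, 484 and 738 RSEM counts in replicates 1 to 3. Its copy Gm28661 had 49251, 41623 and 22213 counts in the same libraries. The copy therefore held 98.5% ± 1.63 (SD, n = 3) of the pair's RSEM counts, and 89.2% ± 4.66 (SD, n = 3) of its kallisto counts. The low count on the mt-Co2 row thus stood beside a far higher count on a sequence identical over its whole aligned length. RSEM's own posterior SD for mt-Co2 was 1584, 2068 and 1375 counts, larger than the expected count in every library. It was 29.9%, 32.9% and 37.02% of RSEM's posterior mean, a separate estimate from the expected count. The posterior mean of mt-Co2 was therefore above its expected count in every library.

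mt-Atp6 (chrM:7927-8607), the proton channel subunit a of ATP synthase, was divided in opposite ways by the tools. The RSEM counts were 3419, 2477 and 5853 on mt-Atp6 and 30607, 25037 and 10781 on Gm10925, which put 81.9% ± 14.8 (SD, n = 3) on the copy. The kallisto counts were 36583, 29470 and 18232 on mt-Atp6 and 70.1, 252 and 18.1 on Gm10925, or 0.380% ± 0.408 (SD, n = 3) on the copy. mt-Nd4l (chrM:9877-10173), a small membrane subunit of complex I, was divided about evenly by RSEM and wholly assigned to the mitochondrial gene by kallisto. RSEM placed 2561, 2767 and 1157 counts on it and 2951, 2293 and 1526 on Gm10222, while kallisto placed 6944, 6090 and 3234 on mt-Nd4l and 0 on Gm10222 in all 3 libraries.

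The other pairs fell between these cases or lay mainly on the mitochondrial gene. mt-Co3 (chrM:8607-9390), the third core subunit of cytochrome c oxidase, had 7561, 3306 and 4984 RSEM counts beside 40533, 40882 and 17176 on Gm28437. The share on that copy was 84.8% ± 7.52 in RSEM and 60.5% ± 10.5 in kallisto (SD, n = 3 each). mt-Nd3 (chrM:9459-9806), a complex I subunit, shared its counts about evenly in replicates 1 and 2, where Gm28438 held 46.9% and 43.6% of the RSEM counts, but in replicate 3 the copy held 13.7%. In kallisto it held 54.9%, 42.6% and 55.2%, with no drop in replicate 3. For mt-Co1 (chrM:5328-6872), the catalytic subunit of cytochrome c oxidase, 7.33% ± 1.06 (SD, n = 3) of the RSEM counts lay on Gm29216. mt-Nd4 (chrM:10167-11544), a proton-pumping subunit of complex I, had 0 RSEM counts on Gm28439 in all libraries, although that copy is identical to the first 876 of its bases, and kallisto placed 2108, 1464 and 0 counts there.

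**Figure D1:**
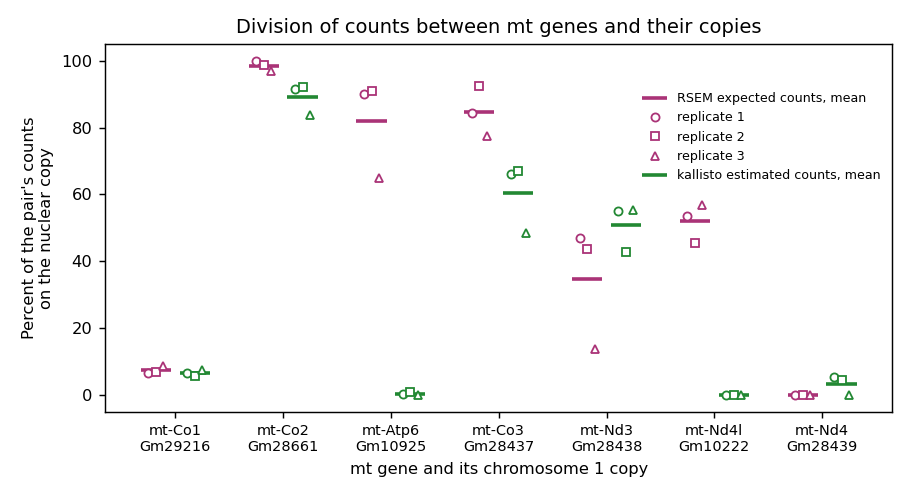
Percent of the counts of each pair (mitochondrial gene plus chromosome 1 copy, horizontal axis) that lay on the copy (vertical axis, percent), for RSEM and kallisto counts. Points are the 3 replicates and bars their means. Gm10925 held 81.9% of its pair in RSEM and 0.380% in kallisto.

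Over all 31 loci treated as nuclear copies, 28.1% ± 1.02 (SD, n = 3) of mitochondrial-like counts lay on the 7 chromosome 1 genes in RSEM, and 17.9% ± 1.28 (SD, n = 3) in kallisto. The other 24 loci together held 61.0, 46.4 and 53.2 RSEM counts, and 18 of them were at 0 in both quantifications of every library.

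Summing each pair removed most of the disagreement. Genes were compared at a mean of 100 counts or more in either quantification, and 17 mitochondrial genes qualified. Of these, 7 were over 2-fold higher in kallisto than in RSEM in every library, beside 2.72% of all 10811 genes compared, and 0 were over 2-fold lower, beside 0.703%. The 7 were mt-Co2, mt-Atp6, mt-Co3, mt-Nd4l, mt-Rnr2 and the tRNAs mt-Te and mt-Tp. Counts were not scaled here, and the kallisto total was larger than the RSEM total in every library. With counts scaled to the total, 4 were called, namely mt-Co2, mt-Atp6, mt-Te and mt-Tp. mt-Rnr2 lay at the threshold in replicate 3, with an unscaled ratio of 2.001. The tRNAs were called by construction, since RSEM gives every mitochondrial tRNA an effective length of 0 and a count of 0, and they entered only through kallisto. With each copy added to its mitochondrial gene, 3 remained, namely mt-Rnr2 and the tRNAs mt-Te and mt-Tp, whose calls could not have come out otherwise. For the 7 pairs the summed kallisto count was then 1.05 to 1.26 times the summed RSEM count over all libraries. The sums cannot tell how many of these reads came from mitochondrial and how many from nuclear transcripts.

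The levels of the 13 mRNAs are given next as RSEM CPM per kilobase of the annotated mitochondrial gene, with the copies added. Complex IV, cytochrome c oxidase, had the highest levels. mt-Co1 was at 1916, 2044 and 1126 CPM per kilobase in replicates 1 to 3, with a mean of 1696 ± 498 (SD, n = 3). mt-Co2 was at 1360, 1414 and 869 CPM per kilobase, and mt-Co3 at 1159, 1295 and 732. Within every library mt-Co1 was above mt-Co2 and mt-Co2 above mt-Co3, by 0.47 ± 0.08 and 0.20 ± 0.07 on the log2 scale of CPM per kilobase (SD, n = 3).

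ATP synthase followed with mt-Atp6 at 944, 928 and 633 CPM per kilobase, below mt-Co3 in every library. mt-Atp8 (chrM:7766-7969), a short accessory subunit of the same enzyme, was at 430, 452 and 339.8 CPM per kilobase. mt-Atp8 and mt-Atp6 overlap on the same strand by 43 bases, so a read wholly within that stretch would match either. The RSEM counts of mt-Atp8, 4648, 4016 and 2676, nevertheless had a posterior SD of 0. The stretch is shown with the shared bases in capitals.
End of mt-Atp8, chrM:7910-7969, plus strand: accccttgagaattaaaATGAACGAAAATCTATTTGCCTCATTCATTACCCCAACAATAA

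The level of mt-Atp8 depended on how length was counted. In the deposited RSEM TPM it was the highest of the 13 mRNAs, at 1895, 2065 and 1368 TPM, above mt-Co1 at 1067, 1200 and 778 TPM in every library. RSEM gave this gene of 204 bases an effective length of 23.7, 24.2 and 33.4 bases, whereas kallisto gave it 49.4, 52.7 and 57.0 bases. In kallisto TPM mt-Co1 was above mt-Atp8 in 2 of 3 libraries, and per annotated kilobase mt-Atp8 stood among the subunits of complex I. Its place in the order therefore rested on the length used.

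mt-Cytb (chrM:14145-15288), the cytochrome b of complex III and the only subunit of that complex encoded in mitochondria, was at 608, 646 and 372 CPM per kilobase. It has no copy in the chromosome 1 cluster, and its RSEM counts of 36829, 32176 and 16415 had a posterior SD of 0.

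The 7 subunits of complex I, the NADH dehydrogenase, were lower than the 3 complex IV mRNAs. With copies added, their means ran from 225 CPM per kilobase for mt-Nd2 (chrM:3914-4951) to 523 for mt-Nd1 (chrM:2751-3707). mt-Nd1, a subunit of the ubiquinone-binding part, was at 583, 642 and 344 CPM per kilobase. mt-Nd2, a membrane subunit, was at 246, 279.8 and 150.0 and was the lowest of all 13 mRNAs in every library. mt-Nd4 was at 497, 508 and 289 CPM per kilobase, and mt-Nd5 (chrM:11742-13565), another proton-pumping subunit, at 459, 527 and 267. mt-Nd3 was at 338, 306 and 219 and mt-Nd4l at 351, 391 and 234. mt-Nd4l shares its last 7 bases with the start of mt-Nd4 on the same strand, shown here in capitals because the 2 reading frames are known to lie on 1 RNA.
End of mt-Nd4l, chrM:10144-10173, plus strand: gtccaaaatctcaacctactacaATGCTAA

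**Figure D2:**
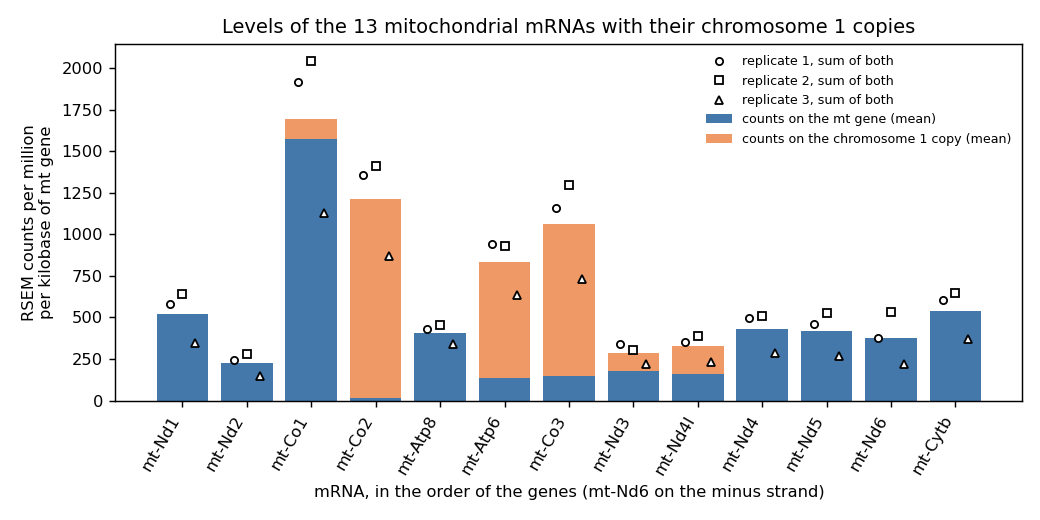
RSEM CPM per kilobase (vertical axis) of the 13 mRNAs in gene order (horizontal axis). Stacked bars are means over 3 replicates of counts on the mitochondrial gene and on its chromosome 1 copy, and points are the sum in each replicate; nearly the whole mt-Co2 bar lies on the copy, and replicate 3 is lowest for every mRNA.

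Neighbours in the order of levels were called resolved where the same gene was higher in every library and the mean log2 difference was larger than its SD over libraries. With the copies added, 8 of 12 neighbouring pairs were resolved. These put mt-Co1, mt-Co2, mt-Co3, mt-Atp6, mt-Cytb and mt-Nd1 in that order, each above the next, with mt-Nd1 above mt-Nd4. The step from mt-Cytb to mt-Nd1 was small, at 0.06 ± 0.05 on the log2 scale (SD, n = 3). In RSEM TPM and in kallisto TPM that pair was not resolved. At the low end mt-Nd4l was above mt-Nd3 and mt-Nd3 above mt-Nd2. The place of mt-Nd4l, of 297 bases, also rested on the length used. Per annotated kilobase with copies added, kallisto put it at 369, 345 and 221 CPM, against 521, 500 and 290 for mt-Nd1. In kallisto TPM it was above mt-Nd1 in every library, by 0.56 ± 0.06 on the log2 scale (SD, n = 3). From mt-Nd4 through mt-Atp8, mt-Nd5 and mt-Nd6 to mt-Nd4l the 4 neighbouring pairs were not resolved. Of these, mt-Nd5 exceeded mt-Nd6 by 0.18 ± 0.17 on the log2 scale (SD, n = 3), but in 2 of 3 libraries. In the deposited TPM of the mitochondrial rows alone, 4 of 12 were resolved, and mt-Co2 came last.

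mt-Nd6 (chrM:13552-14070) is the single mRNA of the minus strand and encodes a membrane subunit of complex I. It had 10298, 12037 and 4462 RSEM counts, which were 2.17%, 2.86% and 2.12% of the mRNA counts with copies added, a mean of 2.38% ± 0.416 (SD, n = 3). Per kilobase it was at 375, 533 and 223 CPM, against 459, 527 and 267 for mt-Nd5, the plus-strand gene that faces it. Per annotated kilobase the level of mt-Nd6 was thus 81.6%, 101% and 83.6% of that of mt-Nd5, and the pair was not resolved. In RSEM TPM, which uses effective length, mt-Nd6 was above mt-Nd5 in every library, at 330, 491 and 236 against 267, 324 and 197. In kallisto TPM it was also above in every library, at 164, 135 and 52.8 against 121, 85.7 and 42.0. Their order therefore rested on the length used. The last 14 bases of both genes are complementary, shown in capitals at the end of mt-Nd6. Without known strandedness, reads there, and reads from plus-strand precursor RNA across mt-Nd6, cannot be told apart from mt-Nd6 mRNA.
End of mt-Nd6, chrM:13552-13581, minus strand: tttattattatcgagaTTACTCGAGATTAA

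The rRNAs were far below the mRNAs in these rRNA-depleted libraries and differed more between replicates than any mRNA with copies added. mt-Rnr1 (chrM:70-1024), the RNA of the small mitochondrial ribosomal subunit, had 247, 401 and 1828 RSEM counts, or 4.67, 9.21 and 47.4 CPM. mt-Rnr2 (chrM:1094-2675), the RNA of the large subunit, had 196, 587 and 1791 counts, or 3.70, 13.5 and 46.4 CPM. Replicate 3 was highest for both, opposite to the mRNAs. The nuclear-encoded rRNA gene CT010467.1 moved the same way, at 32.4, 103 and 683 CPM. Gm26917, the gene beside it on chromosome 17, did not, at 164, 1091 and 211 CPM with replicate 2 highest. How far rRNA depletion has a part in the mitochondrial rRNA levels was not tested, and these levels are those left after depletion.

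In kallisto the rRNA difference between libraries was smaller. mt-Rnr1 had 524, 1032 and 2679 estimated counts and mt-Rnr2 had 1447, 2877 and 3583. The CPM of mt-Rnr2 in replicate 3 was 12.5 times that in replicate 1 in RSEM and 3.18 times in kallisto. Relative to the mRNAs with copies added, rRNA counts amounted to 0.0932%, 0.235% and 1.72% in RSEM and 0.381%, 0.851% and 2.70% in kallisto. Both quantifications gave the same order of the libraries.

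The tRNAs are 59 to 75 bases long, and RSEM gave all 22 an effective length of 0 and a count of 0 in every library, so these zeros carry no information on their level. kallisto placed 1591 estimated counts on them over the 3 libraries, or 0.000925% ± 0.000214 of all counts (SD, n = 3). Mature tRNA and longer precursor RNA cannot be told apart in these counts. The counts lay mainly on the minus strand: its 8 tRNAs had 668, 382 and 487 counts in replicates 1 to 3, against 22, 24 and 8 on the 14 plus-strand tRNAs. The minus-strand share was 96.8%, 94.1% and 98.4%.

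Every minus-strand tRNA had at least 4 estimated counts in every library, and no plus-strand tRNA had as many as 4 in all of them. mt-Tp, the tRNA for proline, had 296, 143 and 169 counts, and mt-Te, for glutamate, had 136, 67 and 111. mt-Ts1, a serine tRNA, had 68, 73 and 92 counts, and mt-Tc, for cysteine, had 83, 56 and 61. The sequences of these tRNA genes follow, beside mt-Tt and mt-Td. Those lie on the plus strand next to mt-Tp and mt-Ts1 and had 0 counts in every library, which allows up to 3 counts.
mt-Tp, chrM:15356-15422, minus strand: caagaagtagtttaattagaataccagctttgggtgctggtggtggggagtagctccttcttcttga
mt-Tt, chrM:15289-15355, plus strand: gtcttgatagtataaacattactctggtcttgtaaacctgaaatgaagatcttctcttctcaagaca
mt-Te, chrM:14071-14139, minus strand: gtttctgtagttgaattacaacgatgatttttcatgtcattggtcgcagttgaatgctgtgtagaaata
mt-Ts1, chrM:6870-6938, minus strand: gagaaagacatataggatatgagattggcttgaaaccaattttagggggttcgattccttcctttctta
mt-Td, chrM:6942-7011, plus strand: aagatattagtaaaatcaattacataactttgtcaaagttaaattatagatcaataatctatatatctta
mt-Tc, chrM:5192-5257, minus strand: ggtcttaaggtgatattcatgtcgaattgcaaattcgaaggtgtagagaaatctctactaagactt

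The remaining minus-strand tRNAs were lower. mt-Ty, for tyrosine, had 33, 17 and 19 counts, mt-Tn, for asparagine, 30, 18 and 24, mt-Ta, for alanine, 10, 4 and 7, and mt-Tq, for glutamine, 12, 4 and 4. On the plus strand the highest single count was 9, on mt-Tm, the methionine tRNA, and mt-Tf, mt-Td, mt-Tr, mt-Tl2 and mt-Tt were at 0 in all libraries. Along the minus strand from the control region, in the direction of its transcription, the tRNAs come in the order mt-Tp, mt-Te, mt-Ts1, mt-Ty, mt-Tc, mt-Tn, mt-Ta and mt-Tq. Mean counts declined along this order from 203 for mt-Tp to 6.67 for mt-Tq, apart from mt-Ty, whose 23.0 lay below the 66.7 and 24.0 of the next genes. Several steps of this order did not hold in every library. mt-Te was below mt-Ts1 in replicate 2, at 67 against 73 counts, and mt-Ts1 was below mt-Tc in replicate 1, at 68 against 83. mt-Ty and mt-Tn did not differ beyond their spread, and neither did mt-Ta and mt-Tq. Since strandedness is not given, the minus-strand counts could include reads from plus-strand RNA that spans the same bases, which cannot be told apart in these tables.

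**Figure D3:**
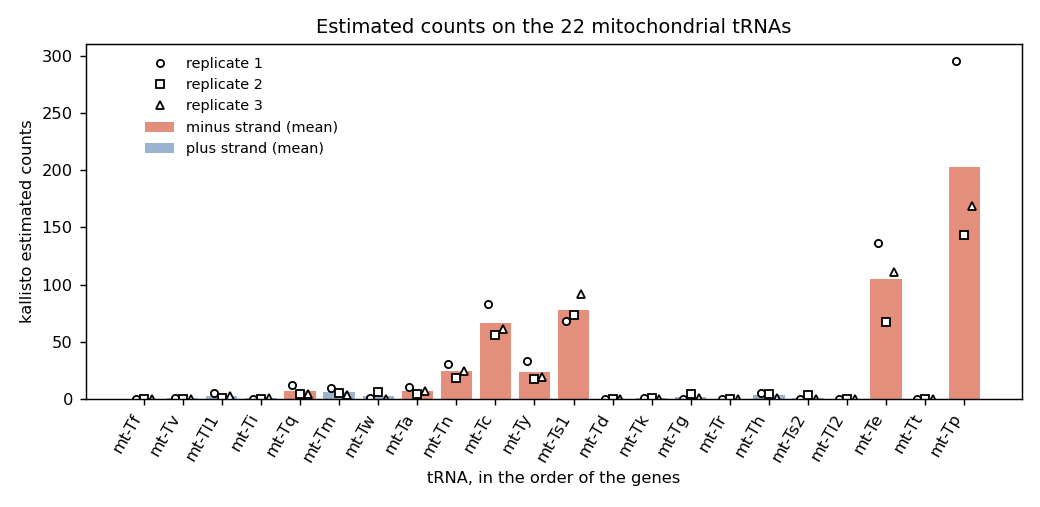
kallisto estimated counts (vertical axis) on the 22 mitochondrial tRNAs in gene order (horizontal axis). Bars are means over 3 replicates, coloured by strand, and points are the replicates; all 14 plus-strand tRNAs stay at 9 counts or fewer, and mt-Tp reaches 296.

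Between replicates the mRNAs moved together. After TMM scaling of the RSEM counts and with copies added, all 13 mRNAs were lower in replicate 3 than in replicate 1, by a log2 difference of -0.40 (mt-Atp8) to -0.85 (mt-Nd5) with a median of -0.77. Replicate 2 against replicate 1 gave a median log2 difference of 0.08. Over all 10343 genes with a mean of 100 counts or more, the same medians were -0.001 and -0.021. mt-Nd3 shows what the copies do to this picture. Its own row gave 62.5, 60.1 and 65.9 CPM, nearly level across the libraries, while with Gm28438 added it was at 118, 107 and 76.3 CPM, lowest in replicate 3 like the others.

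The SD of log2 CPM over the 3 libraries had a median of 0.51 over the 13 mRNA rows, against 0.11 over all 10343 genes. With the copies added the median was 0.47. That spread rested on replicate 3: over replicates 1 and 2 alone the median was 0.12, against 0.09 for all genes. The CT010467.1 level also set replicate 3 apart, at 21.1 times that of replicate 1 in CPM, while its neighbour Gm26917 was at 1.29 times. What part the CT010467.1 level has in the lower mRNA levels was not tested.

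Of the 37 genes, 15 (the mRNAs and rRNAs) passed the minimum of 100 counts, and in the pairs of libraries 7 of them were over 2-fold apart at least once. Replicate 2 was over 2-fold above replicate 1 for 2 of 15, mt-Rnr2 and mt-Co2, beside 1.38% of all genes, and over 2-fold below for 0 of 15, beside 0.145%. Replicate 3 was over 2-fold above replicate 1 for 4 of 15, mt-Rnr1, mt-Rnr2, mt-Co2 and mt-Atp6, beside 0.348%, and over 2-fold below for 0 of 15, beside 0.193%. Against replicate 2, replicate 3 was over 2-fold higher for mt-Rnr1, mt-Rnr2 and mt-Atp6, beside 0.841%, and over 2-fold lower for mt-Nd4l, mt-Nd5 and mt-Nd6, beside 2.03%. mt-Nd5 lies at the threshold, with a log2 difference of -1.03, and was not called with DESeq2 size factors or with library size alone. With copies added, 4 of the 7 were still called, mt-Rnr1, mt-Rnr2, mt-Nd5 and mt-Nd6. With 1 library on each side these are descriptions without a test.

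**Figure D4:**
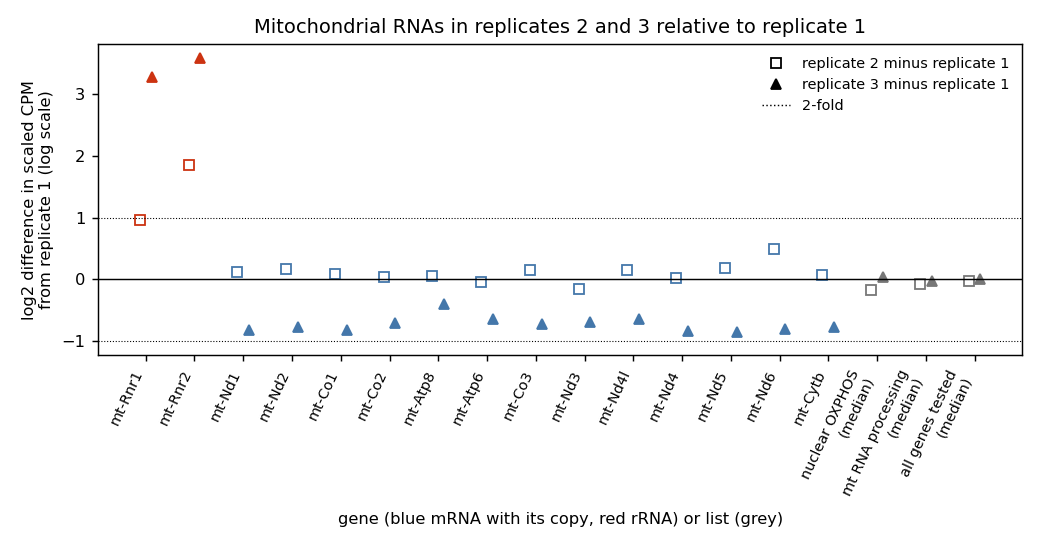
log2 difference in TMM-scaled CPM (vertical axis) of replicates 2 and 3 from replicate 1, for the rRNAs, the mRNAs with copies added and the medians of nuclear lists (horizontal axis). Dotted lines mark 2-fold; the mRNAs of replicate 3 lie between -0.40 and -0.85, and both rRNAs of replicate 3 lie above 3.

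In the median, nuclear genes of oxidative phosphorylation differed less than the mRNA rows in pairs with replicate 3, but more between replicates 1 and 2. For the 13 mRNA rows the median log2 difference was -0.77 (replicates 3 and 1), 0.08 (2 and 1) and -0.86 (3 and 2). The nuclear list includes Sdha, Sdhb, Sdhc and Sdhd of complex II, to which none of the 13 mRNAs belongs. It holds 87 genes of oxidative phosphorylation, of which 79 were at 1 TPM or more in every library. Their median log2 difference in TMM-scaled CPM was 0.04 between replicates 3 and 1, -0.17 between replicates 2 and 1 and 0.22 between replicates 3 and 2. In RSEM counts 0 of the 78 that passed the minimum were over 2-fold apart in any pair of libraries, beside 0.145% to 2.03% of all genes per pair and direction, so that count does not set the list apart. In kallisto counts 1 of 78, Atp5g2, a c subunit gene of ATP synthase, was over 2-fold higher in replicate 3 than in replicate 2, beside 0.857% of all genes. Their SD of log2 CPM had a median of 0.12, near that of all genes. Cox4i1, a nuclear subunit of cytochrome c oxidase, was at 204, 189 and 205 TMM-scaled CPM, but at 202, 193 and 270.5 TPM, so replicate 3 stood higher on the TPM scale than in scaled counts. Atp5b, the catalytic beta subunit of ATP synthase, was at 149, 142 and 193 TPM, and Cox8a, a small subunit of cytochrome c oxidase, at 134, 103 and 162 TPM.

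Per length, the mitochondrial mRNAs stood above this nuclear list in the median. The median level was 276.7, 326 and 222 TPM for the 13 mRNA rows and 34.6, 33.2 and 44.8 TPM for the nuclear list in replicates 1 to 3. The difference of the medians of log2(TPM + 0.1) was 3.00, 3.30 and 2.31, a mean of 2.87 ± 0.51 (SD, n = 3). It was smallest in replicate 3, where on the TPM scale the mitochondrial median was lowest and the nuclear median highest.

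The list of nuclear genes for mitochondrial RNA synthesis and processing also holds genes of mitochondrial DNA replication and maintenance, such as Polg and Twnk. These 45 genes were expressed at low levels, with a median of 3.04, 2.82 and 3.42 TPM, and 39 of them were at 1 TPM or more in every library. The highest were Rexo2, an oligoribonuclease that removes very short RNAs, at 20.1 ± 3.69 TPM, and Slirp, a partner of the mRNA-stabilising protein Lrpprc, at 17.7 ± 7.33 TPM (SD, n = 3 each). Grsf1, a protein of mitochondrial RNA granules, was at 14.0 ± 2.30 TPM, and Hsd17b10, a subunit of mitochondrial RNase P, at 12.9 ± 1.94 TPM (SD, n = 3 each). None of the 41 that passed the minimum was over 2-fold apart between any pair of libraries, beside the same 0.145% to 2.03% of all genes, a count that does not set this list apart either. Their median log2 difference between replicates 3 and 1 was -0.03.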

How the data were processed

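Total RNA-seq of 3 libraries was used. Per the file headers, the authors deposited a gene table in the columns RSEM writes, with expected counts, TPM and posterior estimates, and a transcript table in the columns kallisto writes, with estimated counts and TPM. The deposited expected counts and estimated counts are not normalized, and the TPM that the authors deposited sums to a constant in each library. The deposited text files name mm10 and GENCODE M21. The aligner, the tool versions and whether counting used strand were not given in the sources used here.

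Rows without a gene (0.186%, 0.167% and 0.0396% of RSEM counts) were left out. kallisto totals were 63478438, 59579391 and 49413640. Transcripts were summed to genes by the gene identifier in the target name. Expected counts were rounded and scaled with TMM in edgeR 4.0.16 (R 4.3.3), with prior count 2 for log2 CPM and a minimum mean count of 100. The step was checked on simulated data. With 1 group, no test between groups exists, and values are per library with mean ± SD. Floors cover counting error only.

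Copies were found by aligning GENCODE M21 transcripts with BLAST 2.17.0 to the 37 mitochondrial genes, keeping genes of which at least 50% aligned at 80% identity or more. Bases between genes and the control region were not used here. This found 29 loci. A further 2 of the 31, Gm10221 and Gm28440, were listed by name and did not align. One name of the processing list, Prorp, had no match.

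All 37 members are reported: mRNAs and rRNAs in full, tRNAs at 10 counts or more by name, copies at 50 counts or more, and the 4 and 3 highest genes of the nuclear lists. Members and lists were chosen with earlier results of these data known. Alternatives were kallisto counts, DESeq2 1.42.0 size factors, library size, prior count 0.5, minimums of 20 or none, pseudocounts of 1 and 0.01, other denominators and each replicate left out. Python 3.11.15 with pandas 2.3.3 was used for the remainder.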

Additional observations from a re-analysis of the deposited data

How the results depend on the processing

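Alternatives with copies added were chosen after seeing the data, except for the difference from the nuclear list. With copies added, the mRNA share was 0.804%, the mt-Nd6 share 2.38%, resolved neighbours 8, genes over 2-fold apart between replicates 4 and between quantifications 3, and the difference from the nuclear list 3.48. With kallisto counts, the tRNA share was 0.000925%, the nuclear copies held 17.9%, and 3 genes were over 2-fold apart between replicates. The mt-Nd6 share was 6.43% in TPM. Genes over 2-fold apart between quantifications numbered 11 at a minimum of 20, 16 with none, and 4 with counts scaled to the total. The cause of these changes was not tested. Leaving out each replicate gave 4 to 7 resolved neighbours, a median SD of 0.116 to 0.658 for mRNAs and 0.0524 to 0.158 for nuclear oxidative phosphorylation genes, and 2 to 6 genes over 2-fold apart. The lowest mRNA SD and the 2 genes are without replicate 3, and the lowest nuclear SD is without replicate 2. The rRNA share of 0.00416% was 0.00155% without replicate 3. Among these 12 summary values, 66 of 84 alternatives stayed within the replicate spread or within 1.5 times a count. Plus-strand tRNA counts of 0 to 9 are near the floor of 3 counts. No paired analysis was possible because the series has 1 group.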

Other observations

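Of the loci outside chromosome 1 that align to mitochondrial genes, those with RSEM counts above 0 lie side by side on chromosome 2. Gm13340 (chr2:22588103-22589647, minus strand) aligns over its whole length to mt-Co1 at 97.6% identity and had 37.1, 25.2 and 23.4 RSEM counts in replicates 1 to 3, against 146424, 128120 and 61407 on mt-Co1. Gm13341 (chr2:22587291-22587962, minus strand) aligns to mt-Co2 at 95.9% identity and had 7.18, 12.3 and 2.06 RSEM counts. Gm10221 on chromosome 5, listed by name although it does not align, had 16.7, 8.99 and 27.8 RSEM counts and 0 in kallisto. These values were looked up after the others were seen. Gm13339, the next copy on chromosome 2, was at 0 in both quantifications of every library.

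RSEM's posterior SD, as a percent of its posterior mean, differed among the mRNAs. It was 29.9%, 32.9% and 37.02% for mt-Co2 and 21.7%, 18.6% and 16.2% for mt-Atp6. For mt-Co1, whose copy covers only its last 492 bases, it was 0.103%, 0.115% and 0.172%. For mt-Nd4, whose copy is identical over 876 of its 1378 bases, it was lower still, at 0.0164%, 0.0198% and 0.0404%. It was 0 for mt-Nd1, mt-Atp8, mt-Nd5, mt-Nd6 and mt-Cytb.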
